A study of Mus musculus with 8 samples.

Results

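The genes described here are 7 secreted matrix and matricellular genes, taken by name from the 50462 gene identifiers of the table: the tenascins Tnc, Tnn and Tnxb, the fasciclin domain genes Postn and Tgfbi, fibronectin Fn1, and Sparc. Each matched 1 identifier, and all 7 passed the filter on low counts. The table covers cartilage caps from the medial side of the knee of male C57BL/6J mice, labelled wild-type control, with 1 mouse per library. The 4 naive mice were untreated and sampled at day 0, aged 11 weeks. The 4 DMM mice had the left medial meniscus destabilised by cutting its tibial ligament at 11 weeks and were collected at day 42, at 17 weeks of age. This procedure (DMM, for destabilisation of the medial meniscus) is a surgical model of post-traumatic osteoarthritis. Sham-operated mice were not analysed here, and the effects of surgery and of the added age therefore cannot be told apart. The comparison asks which of these genes differ in joint cartilage after the meniscus has lost its anchor.

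Matricellular proteins are secreted into the matrix but act mainly by modulating how cells attach and respond to it, rather than as load-bearing fibres. Tenascins are large multimeric glycoproteins, and tenascin-C in particular is known to appear in developing, wounded and mechanically loaded tissue. Fibronectin is assembled by cells, through integrins, into fibrils on which collagens and other matrix proteins are deposited. Periostin is best known from periosteum, periodontal ligament and healing tissue, and SPARC (osteonectin) is a collagen-binding glycoprotein abundant in bone.

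Total estimated counts per library ranged from 12479443 to 16548002. The label names chondrocytes, and all 8 chondrocyte markers looked up were detected in every library. Markers of other cells were detected in every library as well, and several marker lists moved with the group. Summed normalised counts of 7 osteoblast and osteocyte markers were 18970 to 23980 in naive and 36100 to 67130 in DMM libraries, with all 7 genes called higher. Chondrocyte markers summed to 27350 to 58970 in naive and 69900 to 135200 in DMM libraries, with 4 of 8 called higher. Col2a1 alone had 15100 to 36990 in naive and 43990 to 97830 in DMM libraries. Of those not called, Hapln1 and Cnmd had positive log2 fold changes (0.79 and 0.46). Col9a1 and Matn3 had negative ones (-0.36 and -0.29). Neutrophil lineage markers summed to 117100 to 175900 in naive and 51090 to 105200 in DMM libraries, with all 7 genes called lower, and 5 of 6 erythroid markers were called lower (152200 to 298900 against 78540 to 168700). Smaller sums moved upwards for smooth muscle and pericyte markers (907 to 2002 against 2221 to 4145, 3 of 4 called), tendon and ligament markers (93.2 to 169 against 179.5 to 396, 2 of 3 called) and endothelial markers (3247 to 3780 against 4091 to 4673, 2 of 5 called). The sums of synovial fibroblast markers overlapped between the groups (2250 to 3171 against 3006 to 4398, 3 of 6 called higher). Those of osteoclast markers did as well (4460 to 8906 against 6637 to 11430, 1 of 4 called higher). The sums of macrophage and skeletal muscle markers also overlapped, and no gene of either list was called. Of the skeletal muscle list, Acta1, Myh4 and Tnnt3 received no adjusted p and so could not be called. The part of these lists in the results below was not tested, and in bulk tissue a change in the number of cells of a type and a change in RNA per cell cannot be told apart.

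Of the 7 genes, 5 were higher in DMM cartilage: Tnn, Postn, Fn1, Sparc and Tnc, from 7.187-fold for Tnn to 1.594-fold for Tnc. Tnxb and Tgfbi did not pass the test. Calls required an adjusted p (DESeq2, Benjamini-Hochberg) no higher than 0.05 together with a change of at least 1.5-fold. Over the 18422 genes tested, 2426 (13.2%) were called, 1376 (7.47%) higher and 1050 (5.70%) lower in DMM. The split of called genes depends on scaling, with 56.72% higher as reported and 80.72% higher when libraries were scaled to their total counts. The same 5 genes were those whose normalised counts did not overlap between the groups, against 3977 (21.6%) of all genes tested. The median log2 fold change (DMM over naive) was 0.92 over the 7 genes and -0.01 over all genes tested. Tested against a 1.5-fold null instead of against no change, 1 of the 7 was called (Tnn, DESeq2 adjusted p = 0.0391). With naive 2, the library with the fewest genes at 10 counts, and DMM 1, the library with the most skeletal muscle transcripts, both left out, 3 were called, as Tnc fell below the fold threshold (log2 fold change 0.56) and Postn missed the adjusted p (0.0849 with DESeq2).

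**Figure D1:**
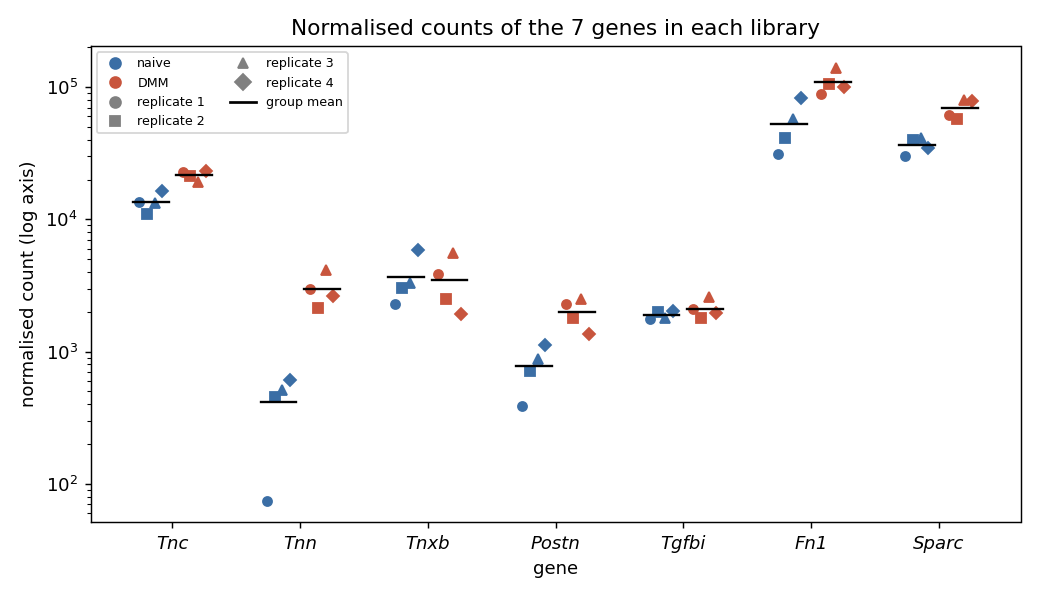
Normalised counts (log axis) of each gene in the 4 naive (blue) and 4 DMM (red) libraries, 1 point per mouse with the marker shape giving the replicate number and black lines the group means. The groups are separate for Tnc, Tnn, Postn, Fn1 and Sparc and overlap for Tnxb and Tgfbi; the lowest point is Tnn in naive 1, at 74.75.

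The upstream sequences of the 2 genes with the largest changes, Tnn and Postn, and of Tnc, the best known tenascin of injured tissue, are given for reference. Each is the 250 bases before the RefSeq transcription start on GRCm38.p6, read 5′ to 3′ on the gene's strand, with matches to the motifs searched in capitals. Tnn is at chr1:160153576-160153825 (minus strand), Postn at chr3:54360857-54361106 (plus strand) and Tnc at chr4:64047016-64047265 (minus strand).
Tnn: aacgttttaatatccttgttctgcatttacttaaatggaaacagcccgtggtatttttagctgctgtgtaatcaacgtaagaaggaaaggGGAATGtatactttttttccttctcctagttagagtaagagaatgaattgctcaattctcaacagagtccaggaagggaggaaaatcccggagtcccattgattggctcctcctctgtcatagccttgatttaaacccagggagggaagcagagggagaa
Postn: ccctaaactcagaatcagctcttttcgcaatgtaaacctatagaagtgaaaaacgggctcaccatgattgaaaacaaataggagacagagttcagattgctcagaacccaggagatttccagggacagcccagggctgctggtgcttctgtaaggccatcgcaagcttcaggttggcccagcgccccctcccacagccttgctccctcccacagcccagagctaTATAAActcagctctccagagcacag
Tnc: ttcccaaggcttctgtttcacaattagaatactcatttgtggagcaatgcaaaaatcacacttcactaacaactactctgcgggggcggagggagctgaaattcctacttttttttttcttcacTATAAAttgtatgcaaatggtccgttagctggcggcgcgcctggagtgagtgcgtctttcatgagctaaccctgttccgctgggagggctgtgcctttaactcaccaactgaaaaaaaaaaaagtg

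Motifs were chosen with the data known. The letters searched were TGANTCA (AP-1), GGAATG (TEAD), GTCTAGAC (SMAD) and the SRF CArG box, on both strands, and TATAAA on the gene's strand. Tnn held GGAATG at position -160 from the start site, which 12.642% of 32851 RefSeq promoter windows of the same length also hold. TATAAA began at -26 in Postn and at -126 in Tnc, and was found in 7.592% of windows. Tnxb held an AP-1 match at -55 (6.749% of windows), and Tgfbi and Sparc held none of the motifs. The SRF CArG box (1.467% of windows) and the SMAD motif (0.167%) matched in none of these 6 genes. Promoters were matched for 6 of the 7 genes, Fn1 being the exception.

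Among the tenascins, Tnn (tenascin-N, also called tenascin-W, known from bone and periosteum) had the largest change of the 7 genes. The gene lies on the minus strand at chr1:160085029-160153580 (GRCm38). Its normalised counts were 74.75, 453.7, 515.9 and 605.5 in naive 1 to 4 and 2968, 2134, 4117 and 2634 in DMM 1 to 4. Every DMM library was above every naive library, the lowest DMM count being 3.524 times the highest naive count, and naive 1 lay far below the other naive libraries. The log2 fold change was 2.85 ± 0.60 (SE, n = 4 per group), or 7.187-fold with a 95% confidence interval of 3.188 to 16.2 (DESeq2 adjusted p = 5.83e-05). Without naive 1 the log2 fold change was 2.50, the lowest over the 8 fits that each left out 1 library.

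Tnc (tenascin-C, an adhesion-modulating glycoprotein of loaded and injured tissue) spans chr4:63959785-64047015 on the minus strand. Normalised counts were 13550, 10980, 13250 and 16310 in naive 1 to 4 and 22650, 21220, 19230 and 23140 in DMM 1 to 4. The groups did not overlap, although the lowest DMM library was only 1.179 times the highest naive one. Its log2 fold change was 0.67 ± 0.13 (SE, n = 4 per group; DESeq2 adjusted p = 1.29e-05), or 1.594-fold (95% confidence interval 1.334 to 1.905), close to the 1.5-fold threshold. An antisense transcript, 8030451A03Rik, overlaps 176 exonic bases of Tnc, and whether counting used strand was not stated.

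Tnxb (tenascin-X, a tenascin of loose connective tissue known for its part in collagen organisation) lies at chr17:34670535-34719815 on the plus strand. Counts were 2308, 3049, 3309 and 5914 in naive 1 to 4 and 3886, 2485, 5582 and 1920 in DMM 1 to 4. The highest value was in naive 4 and the lowest in DMM 4, and the groups overlapped across most of their range. The log2 fold change was -0.07 ± 0.43 (SE, n = 4 per group; DESeq2 adjusted p = 0.941). The interval of the fold, 0.5331 to 1.698, allows a change in either direction. The sign was not stable, as the log2 fold change was 0.07 under total count scaling, 0.26 without naive 4, 0.06 without DMM 2 and 0.13 without DMM 4. Of the 31-base words in its transcripts, 9.756% occur in another gene, nearly all of them in the neighbouring partial copy Tnxa, so its reads could have been divided between the 2 genes.

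Tnn and Tnc were compared by their ratio within a library, which does not depend on scaling. The ratio of Tnn to Tnc counts was 0.005515, 0.04132, 0.03893 and 0.03711 in naive 1 to 4 and 0.1311, 0.1005, 0.2141 and 0.1138 in DMM 1 to 4. All DMM libraries were above all naive libraries. The mean log2 ratio rose by 2.48, from -5.38 ± 1.41 to -2.90 ± 0.48 (SD, n = 4; two-sided exact permutation test, p = 0.0286, the smallest that 70 assignments allow; 0.0429 adjusted over 3 ratios). Naive 1 carried part of this difference, which was 1.78 without it. The pairs of genes, like the genes themselves, were chosen with earlier results known, so the p-values of these ratios are not independent evidence of a difference. Tnr, the other tenascin and one known mainly from the nervous system, was low, at 21.99 to 77.1 in naive and 38.98 to 86 in DMM libraries, and did not pass the test (log2 fold change 0.35, DESeq2 adjusted p = 0.616).

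**Figure D2:**
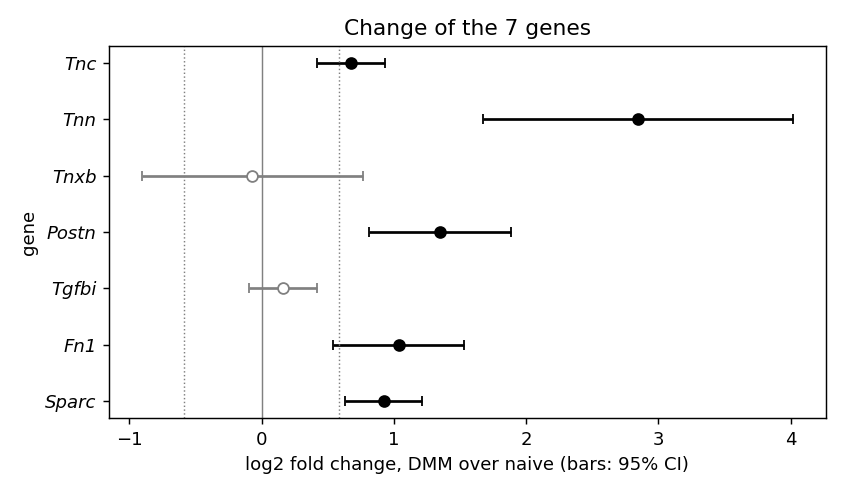
Log2 fold change (DMM over naive, DESeq2) of each gene with its 95% confidence interval; filled points were called, open points were not, and dotted lines mark 1.5-fold. Tnn has the largest change, 2.85, and the widest interval, whereas the intervals of Tnxb and Tgfbi include 0.

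Postn and Tgfbi encode the secreted proteins periostin and TGFBI, which share fasciclin domains and bind integrins and collagen. Postn lies at chr3:54361109-54391037 on the plus strand. Its counts were 390.5, 718.4, 886.2 and 1120 in naive 1 to 4 and 2300, 1803, 2480 and 1352 in DMM 1 to 4. The groups did not overlap, with DMM 4 nearest to the naive range. The log2 fold change was 1.35 ± 0.27 (SE, n = 4 per group; DESeq2 adjusted p = 2.66e-05), or 2.548-fold (95% confidence interval 1.76 to 3.691).

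Tgfbi, named for its induction by TGF-beta, lies at chr13:56609523-56639562 on the plus strand. Its counts were 1753, 2002, 1789 and 2019 in naive 1 to 4 and 2083, 1805, 2605 and 1952 in DMM 1 to 4. The groups overlapped, with DMM 3 alone well above the naive range. The log2 fold change was 0.16 ± 0.13 (SE, n = 4 per group; DESeq2 adjusted p = 0.44), with a fold interval of 0.9338 to 1.336 that lies below the 1.5-fold threshold.

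The ratio of Postn to Tgfbi counts was 0.2228, 0.3587, 0.4952 and 0.5546 in naive 1 to 4 and 1.104, 0.9988, 0.9524 and 0.6925 in DMM 1 to 4, without overlap. The mean log2 ratio rose by 1.26, from -1.38 ± 0.59 to -0.11 ± 0.29 (SD, n = 4; two-sided exact permutation test, p = 0.0286, adjusted p = 0.0429), with the same limit on the choice of the pair. Without DMM 1 or without DMM 2 the exact p was 0.0571. Of the other fasciclin domain genes, the scavenger receptor Stab1 passed the adjusted p but not the fold (log2 fold change 0.57, DESeq2 adjusted p = 0.00908), and its relative Stab2 did not pass (log2 fold change -0.03, DESeq2 adjusted p = 0.953). Vtn (vitronectin), which shares an integrin-binding motif with fibronectin, was at 0.8794 to 5.351 in naive and 5.375 to 15.76 in DMM libraries and was too low to receive an adjusted p.

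**Figure D3:**
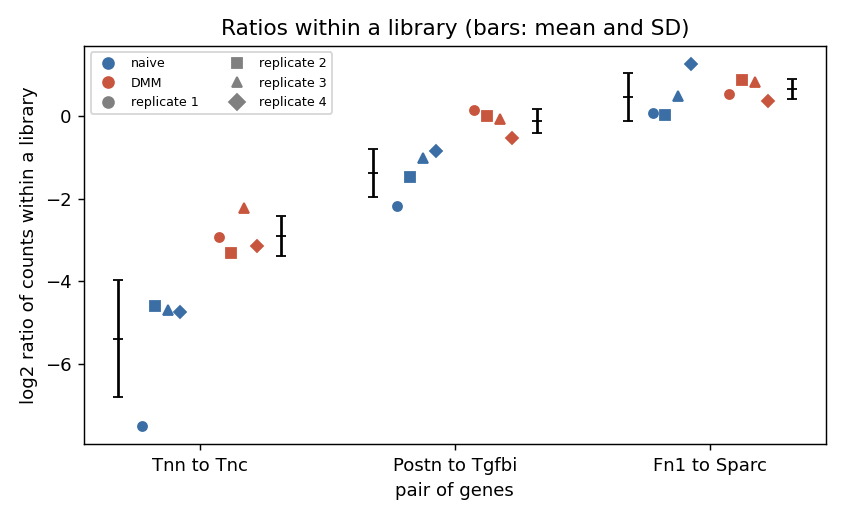
Log2 ratio of the counts of 3 pairs of genes within each library, naive in blue and DMM in red, with marker shapes for the replicate number and bars for mean and SD. Tnn to Tnc and Postn to Tgfbi are higher in all 4 DMM libraries, and Fn1 to Sparc overlaps.

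Fn1 and Sparc held most of the counts of the 7 genes, together 81.22% ± 2.695 in naive cartilage and 84.51% ± 2.112 in DMM cartilage (SD, n = 4). Fn1 (fibronectin, the fibril-forming adhesive glycoprotein) lies at chr1:71585520-71653200 on the minus strand. Its counts were 31390, 41150, 57320 and 82340 in naive 1 to 4 and 89140, 104900, 140500 and 100300 in DMM 1 to 4. The groups did not overlap, but naive 4 reached to within 1.083-fold of the lowest DMM library. Fn1 rose by a log2 fold change of 1.04 ± 0.25 (SE, n = 4 per group; DESeq2 adjusted p = 0.000591), or 2.049-fold (95% confidence interval 1.457 to 2.882). With each library left out in turn, its DESeq2 adjusted p stayed at or below 0.0487, the value without DMM 2. The antisense gene Apol7d overlaps 292 exonic bases of Fn1.

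Sparc (osteonectin, a collagen-binding glycoprotein) lies at chr11:55394500-55423183 on the minus strand. Its counts were 30100, 40150, 40960 and 34450 in naive 1 to 4 and 61140, 57190, 79590 and 78090 in DMM 1 to 4. The groups did not overlap, the lowest DMM library being 1.396 times the highest naive one. Sparc rose by a log2 fold change of 0.92 ± 0.15 (SE, n = 4 per group; DESeq2 adjusted p = 7.16e-08), or 1.895-fold (95% confidence interval 1.548 to 2.319). The sum of osteoblast and osteocyte markers, which did not overlap between the groups either, was highest in DMM 4 and DMM 3. These libraries also had the highest Sparc counts. The same held for the sum of chondrocyte markers, at 135200 in DMM 4 and 107500 in DMM 3. Among DMM libraries the neutrophil lineage sum, lower than in naive libraries, was likewise highest in DMM 4 (105200) and DMM 3 (103200). The part of these lists in the Sparc result was not tested.

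The ratio of Fn1 to Sparc counts was 1.043, 1.025, 1.399 and 2.39 in naive 1 to 4 and 1.458, 1.835, 1.766 and 1.284 in DMM 1 to 4. The groups overlapped, and the mean log2 ratio differed by 0.19 (two-sided exact permutation test, p = 0.6, adjusted p = 0.6), less than the naive SD of 0.57 (n = 4). Together the 7 genes took 0.5575%, 0.5864%, 0.821% and 0.9911% of all counts in naive 1 to 4 and 1.37%, 1.428%, 1.866% and 1.597% in DMM 1 to 4. The means were 0.739% ± 0.205 and 1.565% ± 0.222 (SD, n = 4), given without a test because the genes were chosen with results known. The identifier with the most counts held a mean of 14.97% of naive and 7.082% of DMM counts. With this identifier left out, the 7 genes took 0.8732% ± 0.2579 and 1.681% ± 0.201 (SD, n = 4).

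To compare levels between genes, normalised counts were divided by the length in kilobases of the longest coding transcript. In naive cartilage the mean level per kilobase was 15830 for Sparc, 6380 for Fn1, 1903 for Tnc, 696.7 for Tgfbi, 298.6 for Tnxb, 243 for Postn and 70.9 for Tnn. The ranges of neighbours in this order overlapped only for Tnxb (189.1 to 484.4) and Postn (121.8 to 349.5). In DMM cartilage Sparc, Fn1, Tnc and Tgfbi kept the first places of the order, Tgfbi at 777.9, followed by Postn at 618.9, Tnn at 509.4 and Tnxb at 284.1. Here the ranges of Tgfbi (665 to 959.7) and Postn (421.8 to 773.9), of Postn and Tnn (366.8 to 707.7), and of Tnn and Tnxb (157.2 to 457.2) overlapped. These levels rest on a single transcript length per gene, and Fn1, for example, has 9 coding transcripts in the annotation.

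Within the groups most of the 7 genes were high or low in the same libraries. Naive 4 was the highest naive library for 6 of the 7 genes, the exception being Sparc, and naive 1 was the lowest for 6 of the 7, the exception being Tnc. DMM 3 was the highest DMM library for 6 of the 7 genes and the lowest for Tnc. Some marker sums were likewise lowest in naive 1 among naive libraries, and highest in naive 4 and DMM 3 within their groups. These were the synovial fibroblast, smooth muscle and pericyte, and tendon and ligament lists, and the other marker lists did not share this order. The part of these lists in the pattern was not tested. With group means removed, Pearson's r of log2(normalised count + 1) over the 8 libraries was positive for 18 of 21 pairs. It was 0.88 for Tnn with Postn, 0.868 for Tnxb with Postn, 0.816 for Postn with Fn1 and 0.782 for Tnn with Fn1, whereas Tnc ranged from -0.368 with Sparc to 0.341 with Fn1. These are descriptions over 8 libraries that share scaling factors and tissue composition, and carry no test.

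**Figure D4:**
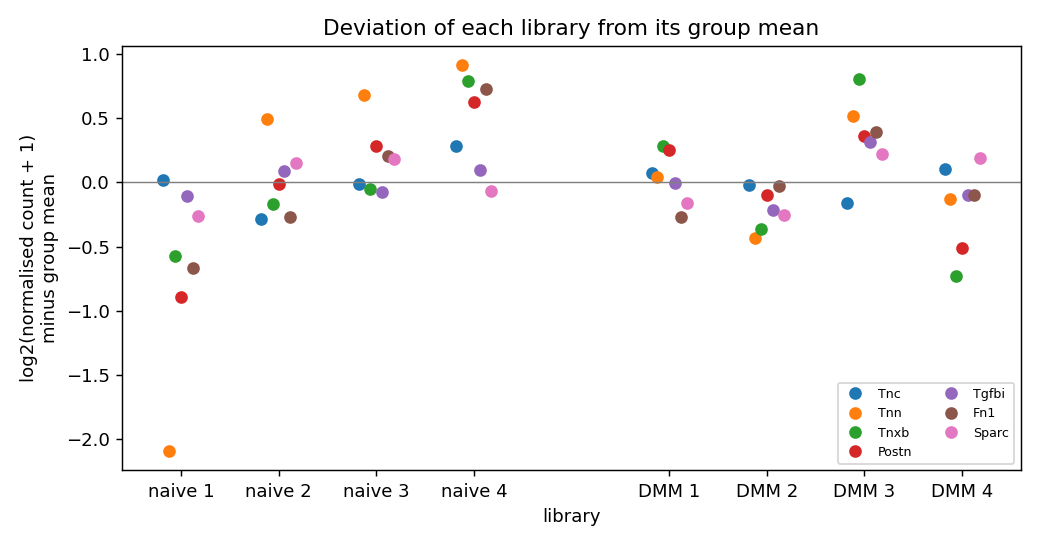
Deviation of log2(normalised count + 1) from the group mean for each gene (colour) in each library. Most points of naive 1 lie below 0 and most of naive 4 and DMM 3 above it, while Tnc in DMM 3 lies below.

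Genes that are not among the 7 but whose pattern over the 8 libraries was most like the mean z-score of the 7 were Acta2 (smooth muscle actin), Palmd, Synm, Myof and Pdpn, with r from 0.9902 to 0.9916 among 11007 genes with a mean count of at least 100. With group means removed the closest were Col6a1 (a collagen VI chain), Fndc3b, Palmd, Zfp81 and Robo1, with r from 0.9775 to 0.9853. Zfp81 was not called (log2 fold change 0.13, DESeq2 adjusted p = 0.618), and the others named here were called higher. Acta2 is also in the smooth muscle and pericyte marker list and Pdpn in the synovial fibroblast list. These genes are the top of a ranking over 8 libraries, so high r follows in part from the selection. The ranking is a description and carries no test.

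Of the 7 relatives of Sparc, 5 were tested and 2 were called, both higher, against 7.47% of all genes tested called higher. Smoc1, which encodes a SPARC-related modular calcium-binding protein, had 324.5, 280.7, 305 and 410.5 in naive 1 to 4 and 686.7, 758.9, 639.6 and 472 in DMM 1 to 4. Its log2 fold change was 0.95 ± 0.18 (SE, n = 4 per group; DESeq2 adjusted p = 4.21e-06). Fstl1 (follistatin-like 1, a secreted glycoprotein) rose by a log2 fold change of 0.99 ± 0.19 (SE, n = 4 per group; DESeq2 adjusted p = 1.54e-05). Smoc2 did not pass (log2 fold change 0.12, DESeq2 adjusted p = 0.673). The median log2 fold change of the 5 tested was 0.19.

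None of the 12 receptor genes was called, although 8 passed the adjusted p alone with changes under 1.5-fold. Of these, Itga4 and Itgb3 were lower in DMM and the others higher. Over all genes, 3974 of the 18422 tested passed the adjusted p alone. Itgav, the integrin αv chain that pairs with several β chains to bind fibronectin, periostin and tenascin-C, had a log2 fold change of 0.58 ± 0.13 (SE, n = 4 per group; DESeq2 adjusted p = 0.000135), just under the fold threshold. Its partner chain Itgb5 had 0.56 ± 0.15 (DESeq2 adjusted p = 0.0022). Itgb3, the β3 chain known from platelets, megakaryocytes and osteoclasts, had -0.55 ± 0.13 (DESeq2 adjusted p = 0.000232), with 4031 to 5639 normalised counts in naive and 3128 to 3340 in DMM libraries. The count of called receptors was 5 without naive 4 and 4 under total count scaling. Without naive 4 the 5 included Itgb8 (the integrin β8 chain), which had missed the adjusted p with all 8 libraries (log2 fold change 0.48, DESeq2 adjusted p = 0.297). It was 2 without DMM 2 or DMM 4, and 1 without naive 2 or naive 3. The replicate block gave 1 (Itgav). The median log2 fold change of the 12 was 0.32.

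Of the 12 matrix partner genes, whose products bind, crosslink or process those of the 7 genes, 10 were called higher and none lower, against 7.47% of all genes tested called higher, and their median log2 fold change was 1.12. The lists were chosen with results known and were not tested against one another. Col5a1 (a collagen V chain) had 3219, 4989, 6105 and 6990 in naive 1 to 4 and 17580, 12370, 17130 and 12190 in DMM 1 to 4. Its log2 fold change was 1.48 ± 0.22 (SE, n = 4 per group; DESeq2 adjusted p = 3.39e-09). Acan (aggrecan, the main cartilage proteoglycan) rose by 1.09 ± 0.17 (DESeq2 adjusted p = 8.04e-09), and Col1a1 (the main collagen chain of bone) by 1.23 ± 0.20 (DESeq2 adjusted p = 4.69e-08). The 2 that were not called were Tgm2 (transglutaminase 2, log2 fold change 0.47, DESeq2 adjusted p = 0.00613) and Fbln1 (fibulin 1, 0.50, DESeq2 adjusted p = 0.129). Acan is also a chondrocyte marker in the list above.

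Of 12 TGF-beta and mechanical response regulators, 5 were called, all higher, against 7.47% of all genes tested called higher. The count was 4 without naive 1, naive 2 or DMM 3, and 7 without naive 4. The median log2 fold change over the list was 0.47. Twist1, a mesenchymal transcription factor, had 73.87, 115.7, 128.4 and 130.4 in naive 1 to 4 and 289.4, 260.1, 292.2 and 194.9 in DMM 1 to 4. Its log2 fold change was 1.22 ± 0.22 (SE, n = 4 per group; DESeq2 adjusted p = 1.15e-06). The ligands Tgfb2 (1.25 ± 0.28, DESeq2 adjusted p = 0.000177) and Tgfb3 (1.09 ± 0.23, DESeq2 adjusted p = 5.86e-05) were called, and Tgfb1 was not (-0.01, DESeq2 adjusted p = 0.986). The homeobox factor Prrx1 rose by 0.83 ± 0.21 (DESeq2 adjusted p = 0.00135). Smad3, which carries the TGF-beta signal to the nucleus, was called at 1.502-fold (log2 fold change 0.59 ± 0.12, DESeq2 adjusted p = 2.22e-05), at the threshold itself, and fell below it without naive 1, naive 2, DMM 3 or DMM 4. The receptor Tgfbr2 passed the adjusted p but not the fold (0.54 ± 0.11, DESeq2 adjusted p = 1.89e-05). Srf (-0.09, DESeq2 adjusted p = 0.693), Mrtfa (-0.22, DESeq2 adjusted p = 0.355) and Egr1 (0.39, DESeq2 adjusted p = 0.254) passed neither.

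**Figure D5:**
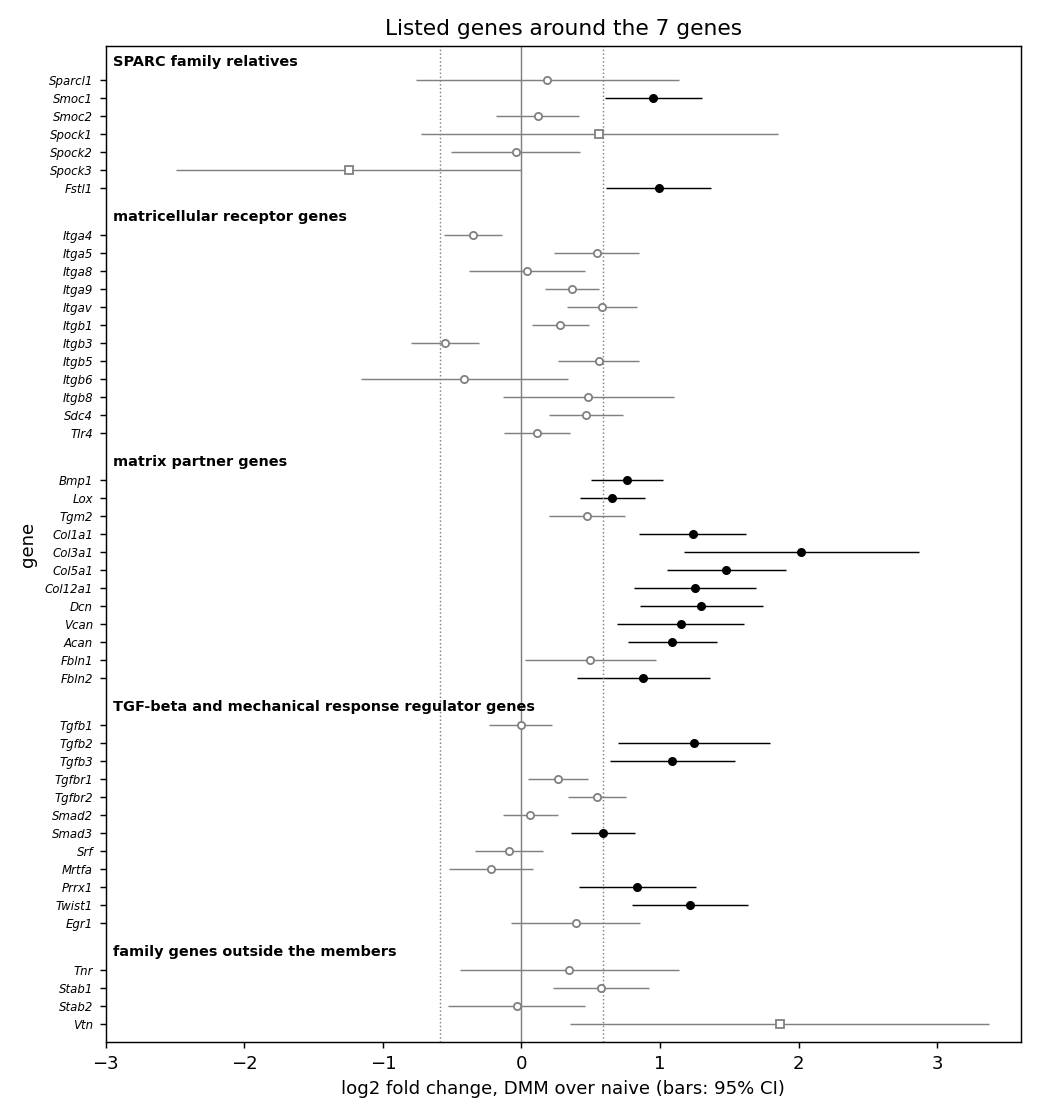
Log2 fold change (DMM over naive, DESeq2) with 95% confidence interval for the 47 listed genes around the 7; filled points were called, open circles were tested and not called, open squares were too low to receive an adjusted p, and dotted lines mark 1.5-fold. Filled points mark 10 of 12 matrix partner genes and none of the receptor genes.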

How the data were processed

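RNA-seq of mouse knee cartilage was analysed from 1 table. The authors trimmed reads, pseudo-aligned them with Kallisto and summed transcripts to genes with tximport; the deposited values are estimated counts, 39.162% of them not whole. The methods name GRCm38 with an Ensembl release that belongs to a later assembly, the submitters' processing notes name GRCh38, and the build was not resolved. The labels name an NEB low-input kit and the methods SMART-Seq with depletion of ribosomal RNA. Strand use in counting was not stated.

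Estimated counts were rounded and all 50462 identifiers were fitted with DESeq2 1.42.0 in R 4.3.3 (Wald test with group as the only term, all 8 libraries, size factors by median of ratios, independent and Cook's filters at their defaults), the test named in the methods. Genes were called at an adjusted p of 0.05 or less over all genes tested and 1.5-fold or more. 2 other filter settings of the same fit were run first: dropping identifiers without counts, and optimising the filter for an adjusted p of 0.05. The whole table was then used, as the written design states, after all 3 had been seen, and their counts are given below. edgeR 4.0.16 and limma 3.58.1 (voom) served as alternatives. Ratios were tested by exact permutation. Scripts were tested on simulated data. The lowest chi-square per degree of freedom between libraries of a group was 8.057, so no library was a duplicate of another.

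The 7 genes and all lists were chosen with earlier results of these data known. Named outside the 7 are the 3 genes of each list with the smallest adjusted p, further called genes where 5 or fewer were called, and the 5 genes most alike in pattern. Tgfb1, Tgm2, Fbln1, Itgb8, Vtn, Itga4, Srf, Mrtfa and Egr1 were named after their values were seen, as were the markers Acta1, Myh4 and Tnnt3. Gene coordinates are from GENCODE vM21 (GRCm38) by identifier, and promoters from RefSeq (GRCm38.p6). Total counts of 12479443 to 16548002 limit the precision of low genes such as Vtn.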

Additional observations from a re-analysis of the deposited data

Results flagged for a closer look

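Of 116 groups of 4 libraries examined with Dixon's test at the 95% level, 6 held a library far from the others, where chance alone gives about 5.8. The log2 ratio of Tnn to Tnc was -7.502 in naive 1 against -4.752 to -4.597 in the other naive libraries; without naive 1 the difference between the groups was 1.78 instead of 2.48. Dcn (decorin) had 23660 normalised counts in DMM 3 against 12860 to 13900 in the other DMM libraries. Naive 4 stood apart for Itgav (2136 against 1565 to 1659), Tgfbr1 (1105 against 959 to 979.7) and Tgfbr2 (2064 against 1671 to 1737). Itgb3 had 3340 in DMM 4 against 3128 to 3155 in the other DMM libraries.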

How the results depend on the processing

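The count of 5 called among the 7 genes was the same under limma-voom, the quasi-likelihood test of edgeR, TMM and total count scaling, no independent filtering, a mean of at least 10 counts, no fold threshold, and with each library left out (5 to 5). Dropping identifiers without counts or filtering for an adjusted p of 0.05, both tried before the whole table was settled on, gave the same 5, with 2434 and 2422 genes called over all genes, 1380 and 1369 higher. Leaving out naive 2 and DMM 1 together was chosen after seeing the data and gave 3 of the 7, with 1320 genes called over all genes, 854 higher and 466 lower. The 1.5-fold null left 1 of the 7, 0 relatives of Sparc, 1 matrix partner, 0 regulators and 88 genes in all, 74 higher and 14 lower. Without a fold threshold 3974 genes passed, 1966 of them lower, with 8 receptors and 1 family gene (Stab1). Over genes averaging 10 counts or more, the median log2 fold change was -0.01 as reported and 0.14 under total count scaling, where 486 genes were called lower and 4 receptors higher. Receptors called numbered 1 under edgeR, limma-voom, TMM scaling and the replicate block, and 0 to 5 with a library left out. Stab1 was the 1 family gene called under edgeR, limma-voom, TMM and total count scaling, and 0 to 1 family genes were called with a library left out. The cause of these shifts was not tested.

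Same-numbered libraries came from different mice. Their deviations from group means correlated at 0.05, 0.058, -0.119 and 0.117, which cannot show whether they shared a batch. With the replicate block, 5 of the 7 genes were called, and 2076 genes over all. Sign flips of the same-numbered differences gave p = 0.125 for the ratio differences of 2.48 (Tnn to Tnc) and 1.26 (Postn to Tgfbi), the smallest exact p that design allows, and p = 0.75 for Fn1 to Sparc. With a library left out, the difference ranged from 1.78 to 2.74 for Tnn to Tnc, from 0.9996 to 1.44 for Postn to Tgfbi and from 0.05 to 0.46 for Fn1 to Sparc.

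Signs that turned belonged to genes that were not called as reported. Under total count scaling the log2 fold change was 0.0667 for Tnxb, 0.1017 for Spock2, 0.1539 for Tgfb1, 0.0708 for Srf and 0.1091 for Stab2. Tgfb1 was at 0.0133 under edgeR, 0.0112 under limma-voom and 0.0209 under TMM scaling. Without naive 2 and DMM 1, Tgfb1 was at 0.0621 and Srf at 0.0128. With 1 library left out, values ranged from -0.3968 to 0.2623 for Tnxb, -0.012 to 0.7324 for Sparcl1, -0.1476 to 0.1098 for Spock2, -0.0477 to 0.1293 for Itga8, -0.0814 to 0.0603 for Tgfb1 and -0.3237 to 0.1645 for Stab2. Sparcl1 at 0.7324, without naive 4, was called.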
